A study of Mus musculus with 9 samples.

Results

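The Hippo kinase cascade was followed in sorted mouse pancreatic ductal adenocarcinoma (PDAC) cells through 10 genes chosen by symbol: Stk3, Stk4, Sav1, Lats1, Lats2, Mob1a, Mob1b, Nf2, Wwc1 and Amotl1. All 10 were found among the 47643 genes of the count files and all 10 had enough reads to be tested. No expression value entered the rule that chose them, but they were chosen with earlier results of these data known. RNA-seq had been performed on FACS-sorted cells from 2 groups of tumor-bearing mice. The KPF group gave 6 libraries of GFP+Yap+ cells and the KPYYF group gave 3 libraries of Tm+Yap− cells. Mice of both groups carried 1 copy of Trp53 that Flp recombinase can delete (Trp53 frt/+), the pancreatic Pdx-Flp driver and the R26 alleles FSF-CreER and Dual, and KPYYF mice carried floxed Yap on both chromosomes in addition (Yap flox/flox). All mice had established tumors when tamoxifen (TAM) was given in their food. TAM activates CreER, and recombination of the Dual reporter exchanges GFP for tdTomato (Tm). The same CreER removes the floxed Yap of KPYYF cells. The KPF cells sequenced here had kept GFP. By the paper's account the Tm+Yap− cells came from relapsed nodules, which had grown out after Yap loss. Genotype, Yap status, reporter recombination and relapse thus changed together and cannot be told apart. Age and length of TAM treatment of the sequenced mice were not given in the labels. Nothing beyond the mouse numbers says how the samples relate, and KPF libraries 4504h and 4504s share the number 4504.

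Hippo signaling restrains Yap and its paralog Taz. The MST kinases (Stk3 and Stk4), bound to the scaffold Sav1, phosphorylate the LATS kinases (Lats1 and Lats2) and their coactivators Mob1a and Mob1b. LATS in turn phosphorylates Yap, which is then kept in the cytoplasm or degraded. Nf2 (Merlin), Wwc1 (Kibra) and the angiomotins bring the kinases or Yap to the cell cortex, and in pancreatic cancer Yap is a well-known driver of growth. Lats2, Nf2 and Amotl2 are also known in other systems as genes that Yap itself turns on. RNA levels say nothing of the phosphorylation of these kinases, which was not measured.

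Between 8116539 and 9635514 reads per library were counted on genes. Values are given as CPM, read counts scaled to the TMM-normalized library size. The libraries came from the 3′ ends of transcripts, and CPM were not used to rank one gene against another. Yap1 (ENSMUSG00000053110) was at 41.8 to 151 CPM in the KPF libraries and at 0.712, 2.84 and 7.12 CPM in the KPYYF libraries 4449, 4891 and 4938 (log2 fold change -4.79, standard error 0.72, adjusted p = 0.0159 in edgeR, quasi-likelihood). The adjusted p of Yap1 was 0.0771 with limma-voom and 0.0553 without library 4891, at log2 fold changes of -4.56 and -4.65. The 8 epithelial markers (Krt7, Krt8, Krt18, Krt19, Epcam, Cdh1, Cldn4 and Muc1) summed to 3238 to 11687 CPM in KPF and only 570.0 to 1828 CPM in KPYYF libraries, and 3 of them had an adjusted p under 0.05, all lower. The cells labelled PDAC thus had less of the defining epithelial transcripts in the KPYYF group. KPF library 4601 stood apart by immune markers, with a sum of 7571 CPM over 9 genes against 336 to 1274 CPM in the other 8 libraries, and the 7 acinar markers were highest in KPF library 4504s (19921 CPM) and KPYYF library 4449 (5907 CPM), with Amy2a2 at 0 reads in all 9. Endothelial markers summed to at most 80.6 CPM. Xist was read 3452 times or more in 6 libraries, all 3 of KPYYF and 3 of KPF, and at most 159 times in the other 3 KPF libraries. The 3 KPF libraries with Xist reads were 4435, 4504h and 4504s, so that comparisons among these 6 libraries may rest on only 2 KPF mice.

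None of the 10 cascade genes had an adjusted p under 0.05 between Tm+Yap− and GFP+Yap+ cells (edgeR's quasi-likelihood test, Benjamini-Hochberg adjustment over 14105 genes tested, smallest adjusted p = 0.0933). Over all genes tested, 1.10% passed. At an unadjusted p under 0.05 there were 2 of the 10, Wwc1 and Sav1, both lower, beside 16.1% of all genes tested. The Wald test of DESeq2 called 1 of the 10, Wwc1, beside 8.71% of the genes it tested, and limma-voom called 0, beside 0.617%. By the rule of the study's methods, an unadjusted p under 0.05 with a change of more than 2-fold, Wwc1 alone passed, beside 13.4% of all genes tested (4.20% higher and 9.20% lower). The groups did not overlap for 1 of the 10, again Wwc1, beside 9.10% of all genes tested. Of the 10 genes 6 had a log2 fold change below 0, beside 53.3% of all genes tested, and their median was -0.21 beside -0.07 for all genes tested. In bulk RNA from sorted cells, fewer cells of a type and less RNA per cell cannot be told apart.

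**Figure D1:**
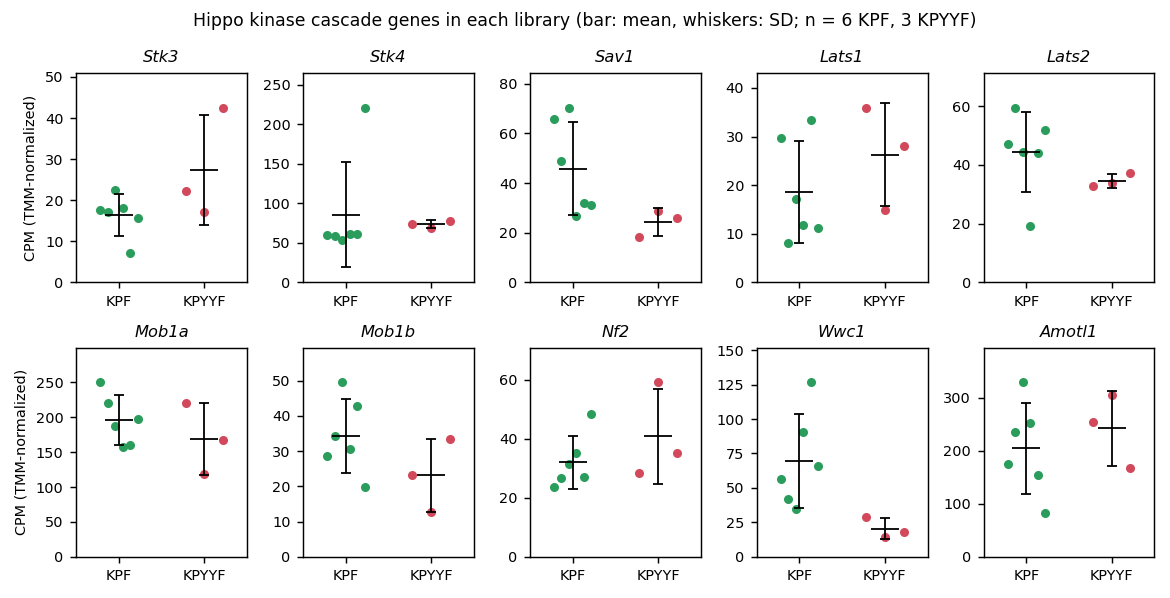
CPM (vertical axis, TMM-normalized, starting at 0) of the 10 Hippo kinase cascade genes in each library, with 1 point per library, KPF GFP+Yap+ in green (n = 6) and KPYYF Tm+Yap− in red (n = 3), and the mean with its SD in black. Wwc1 is the one panel in which the groups do not overlap (14.3 to 29.1 against 34.6 to 127 CPM), and in the Stk4 panel a single KPF library lies at 221 CPM, far above the rest.

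The promoter sequences of the cascade genes were searched for the core of the element bound by the TEAD partners of Yap, because Yap acts on DNA through TEAD proteins and had been deleted in the KPYYF cells. The word was GGAATG or its reverse complement CATTCC, searched on both strands from 250 bases before to 50 bases after each annotated start. RefSeq promoters (GRCm38.p6) were at hand for 9 of the 10 genes, Stk3 being the exception. The word stood in 3 of their 11 promoters (27.3%), those of Sav1, Mob1a and one of Lats2, and in 14.7% of all 32851 promoters. The windows are shown 5′ to 3′ on the gene's strand with the word in capitals, together with that of Amotl2, a paralog of Amotl1 and a known Yap target:
Sav1 (chr12:69987091-69987120, minus strand): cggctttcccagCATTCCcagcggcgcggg
Lats2 (chr14:57746102-57746131, minus strand): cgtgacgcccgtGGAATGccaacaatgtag
Mob1a (chr6:83325818-83325847, plus strand): tggccagaatagCATTCCtttaggagaaga
Amotl2 (chr9:102717727-102717756, plus strand): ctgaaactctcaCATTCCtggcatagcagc
In these data Sav1, Lats2, Mob1a and Amotl2 had log2 fold changes of -0.91, -0.36, -0.21 and -1.52, none with an adjusted p under 0.05. The promoters of Wwc1, Nf2, Amotl1, Stk4, Lats1 and Mob1b did not hold these letters. Their log2 fold changes were -1.76, 0.35, 0.24, -0.22, 0.50 and -0.57, in that order. The promoter of Wwc2, the paralog of Wwc1, also held the word, and Wwc2 had a log2 fold change of -0.43. A word in a promoter is no evidence that it is bound.

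The MST kinases, the first step of the core cascade, showed no difference beyond the spread of the libraries. Stk3 (ENSMUSG00000022329, encoding MST2, on chromosome 15 from 34875496 to 35178921 on the minus strand of GRCm38) was at 7.08 CPM in the lowest, 17.5 CPM in the median and 22.6 CPM in the highest KPF library, and at 22.2, 17.2 and 42.4 CPM in KPYYF libraries 4449, 4891 and 4938. KPYYF library 4938 lay above all other libraries and KPF library 4515 below all, while the groups overlapped between them. The difference was 0.73 on the log2 scale with a standard error of 0.47 and a 95% interval of -0.28 to 1.74 (adjusted p = 0.483 by edgeR's quasi-likelihood test).

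Stk4 (ENSMUSG00000018209, encoding MST1, on chromosome 2 from 164070322 to 164155524) had a lowest KPF value of 53.5 CPM, a median of 60.3 CPM and a highest of 221 CPM. The KPYYF libraries were at 74.1, 68.9 and 78.4 CPM. Each of these 3 was above 5 of the 6 KPF libraries, and KPF library 4601 was far above all of them. Over all libraries the log2 fold change was -0.22 (standard error 0.46, 95% interval -1.21 to 0.78, adjusted p = 0.877 by edgeR's quasi-likelihood test). Without KPF library 4601 it turned to 0.35 (adjusted p = 0.605). Library 4601 was also the one with the high immune markers, among them Csf1r, the receptor of macrophage colony-stimulating factor, at 409 CPM against at most 55.5 CPM in another library, and the leukocyte gene Ptprc (CD45) at 399.5 CPM against at most 116 CPM. The part of these cells in the Stk4 value was not tested.

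The scaffold gene Sav1 (ENSMUSG00000021067, on chromosome 12 from 69965012 to 69987002, minus strand), whose product holds MST and LATS together and whose promoter word is shown above, was at 26.9, 40.5 and 70.2 CPM in the lowest, median and highest KPF libraries. It was at 18.3, 28.9 and 26.0 CPM in KPYYF libraries 4449, 4891 and 4938. Of the 3 KPYYF libraries 2 lay below every KPF library, and library 4891 lay just above the lowest KPF library, 4504s. Sav1 had a log2 fold change of -0.91 (standard error 0.42, 95% interval -1.81 to -0.01), with an unadjusted p of 0.0478 and an adjusted p of 0.303 by edgeR's quasi-likelihood test, and an exact permutation of the 9 libraries (84 splits, two-sided) gave p = 0.0595 for its log2 CPM. The 3′ end of Sav1 overlaps an exon of Atl1 on the opposite strand, which had 0 to 76 reads per library. The strand setting of the counting is not given in the sources used here. Reads from the overlap may therefore have been set aside as ambiguous or counted for the other gene.

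The LATS kinases, which phosphorylate Yap directly, did not pass the test either. Lats1 (ENSMUSG00000040021, on chromosome 10 from 7681214 to 7716460) was at 8.09, 14.5 and 33.3 CPM in the lowest, median and highest KPF libraries and at 35.9, 15.0 and 28.1 CPM in the KPYYF libraries 4449, 4891 and 4938. Library 4449 was the highest of all 9, but library 4891 fell in the middle of the KPF range (log2 fold change 0.50, standard error 0.53, 95% interval -0.64 to 1.64, adjusted p = 0.709 by edgeR's quasi-likelihood test). Lats1 was among the thinly counted genes, with 77 to 305 reads per library.

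Lats2 (ENSMUSG00000021959, on chromosome 14 from 57689662 to 57758388, minus strand) was at 19.4, 45.8 and 59.3 CPM in the lowest, median and highest KPF libraries. The KPYYF libraries were close together at 32.8, 33.7 and 37.3 CPM, inside the KPF range and above only KPF library 4504s. KPYYF cells had a log2 fold change of -0.36 (standard error 0.37, 95% interval -1.16 to 0.44, adjusted p = 0.703 by edgeR's quasi-likelihood test). Although Lats2 is known as a gene that Yap turns on, the loss of Yap1 reads in the same libraries came with a Lats2 difference that the test did not separate from 0. A 2-fold lower level of Lats2 lies within the interval.

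The MOB1 coactivators bind and activate LATS. Mob1a (ENSMUSG00000043131, on chromosome 6 from 83326016 to 83343776) had 1081 to 2570 reads per library and was at 157, 192 and 249.995 CPM in the lowest, median and highest KPF libraries, with 221, 118 and 168 CPM in KPYYF libraries 4449, 4891 and 4938. Its log2 fold change of -0.21 had a standard error of 0.28 and a 95% interval of -0.81 to 0.39 (adjusted p = 0.777 by edgeR's quasi-likelihood test). Mob1a was thereby the one cascade gene whose interval stayed within a 2-fold change in either direction, as that of 12.1% of all genes tested did. Mob1b (ENSMUSG00000006262, on chromosome 5 from 88720855 to 88764220) was at 19.8, 32.4 and 49.5 CPM in the lowest, median and highest KPF libraries and at 23.3, 12.7 and 33.4 CPM in the KPYYF libraries, with 4891 the lowest of all 9 libraries (log2 fold change -0.57, standard error 0.43, 95% interval -1.49 to 0.36, adjusted p = 0.568).

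Whether the 2 copies of a cascade step changed unequally was asked by the log2 ratio of their reads within each library, which needs no library size. The Stk3/Stk4 ratio was -2.22 ± 0.98 (SD, n = 6) in KPF and -1.53 ± 0.58 (SD, n = 3) in KPYYF libraries, a difference of 0.69 (two-sided exact permutation test, p = 0.274, adjusted p = 0.357 over 3 pairs). The Lats1/Lats2 ratio was -1.36 ± 0.97 and -0.48 ± 0.65, a difference of 0.88 (exact permutation p = 0.179, adjusted p = 0.357). For Mob1a/Mob1b it was 2.55 ± 0.59 and 2.92 ± 0.52, a difference of 0.37 (exact permutation p = 0.357, adjusted p = 0.357). In all 3 pairs the groups overlapped, and the differences were of the size of the spread within a group. The lowest Stk3/Stk4 ratio of all libraries, -3.78, was that of KPF library 4601. The smallest p that 84 splits allow is 0.0119.

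**Figure D2:**
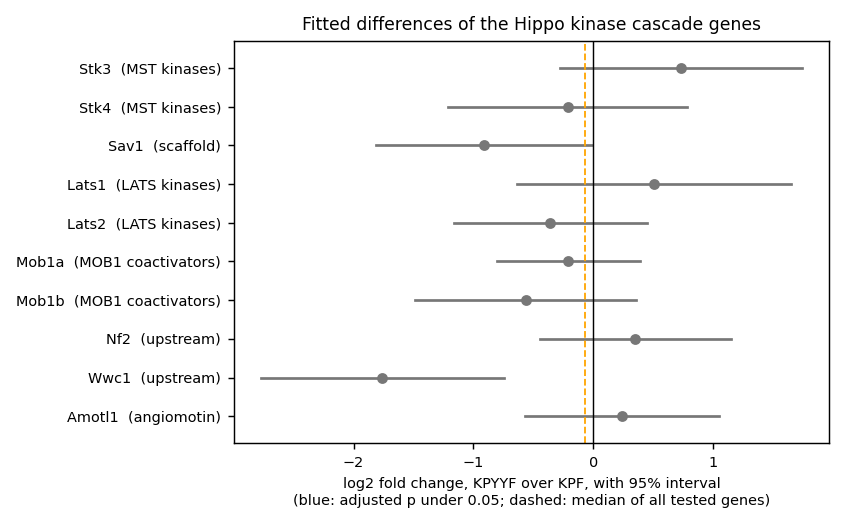
Log2 fold change of KPYYF over KPF (horizontal axis) with its 95% interval for each of the 10 cascade genes (rows, with their role), from the fit over all genes tested, where grey marks an adjusted p of 0.05 or more and the dashed line is the median of all genes tested, -0.07. All 10 points are grey, and the intervals of Wwc1 and Sav1 alone lie below 0.

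Nf2 and Wwc1 act upstream of the kinases. Nf2 (ENSMUSG00000009073, encoding the tumor suppressor Merlin, on chromosome 11 from 4765845 to 4849536, minus strand) was at 23.7, 29.3 and 48.5 CPM in the lowest, median and highest KPF libraries and at 28.5, 59.2 and 35.2 CPM in KPYYF libraries 4449, 4891 and 4938. Library 4891 was the highest of all 9 and the other two lay inside the KPF range (log2 fold change 0.35, standard error 0.37, 95% interval -0.45 to 1.15, adjusted p = 0.710 by edgeR's quasi-likelihood test). Without library 4891 the log2 fold change was -0.01.

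Wwc1 (ENSMUSG00000018849, encoding the WW-domain scaffold Kibra, on chromosome 11 from 35838400 to 35980527, minus strand) was the cascade gene with the smallest p. In the KPF libraries it was at 34.6 CPM in the lowest, 61.0 CPM in the median and 127 CPM in the highest library. In KPYYF libraries 4449, 4891 and 4938 it was at 29.1, 14.3 and 18.0 CPM, all below every KPF library, as were 5.18% of all genes tested. The log2 fold change was -1.76 (standard error 0.47, 95% interval -2.77 to -0.75), 3.39-fold lower in KPYYF cells, with an unadjusted p of 0.00235 and an adjusted p of 0.0933 in edgeR. By exact permutation of the libraries p was 0.0119, the smallest it can give. The adjusted p was 0.00668 with the Wald test of DESeq2 and 0.0387 without a filter on low counts, where 1.34% of all genes passed, and it stayed above 0.05 in all 9 fits that left out a library, with log2 fold changes between -2.10 and -1.48. Among the 6 libraries with Xist reads the log2 fold change was -1.45 (adjusted p = 0.279).

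By level of Wwc1 the libraries stood largely, but not fully, in the order of the summed epithelial markers. KPF library 4515 was highest in both, at 127 CPM of Wwc1 and 11687 CPM of summed markers, and 4504s was second in both. The last 4 places were also held by the same libraries in the same order, from KPF library 4504h (34.6 and 3238 CPM) through 4449 (29.1 and 1828 CPM) and 4938 (18.0 and 686 CPM) to 4891 (14.3 and 570.0 CPM). KPF library 4435 was at place 3 by markers but 5 by Wwc1, and 4601 at place 5 by markers but 3 by Wwc1. The marker sum was itself lower in every KPYYF than in any KPF library, so a gene lower in KPYYF tends to share this order. The order is a description of 9 libraries that share their depth normalization. The part of the epithelial state in the difference of Wwc1 was not tested. The genes with the pattern most like Wwc1 over the 9 libraries, among 9187 others with a mean of at least 10 CPM, were Optn, Ddr1 and Arhgef3, with root mean square differences of centred log2 CPM of 0.31, 0.33 and 0.35. Their log2 fold changes were -1.95, -1.53 and -1.76 (adjusted p = 0.109, 0.0933 and 0.0753 by edgeR's quasi-likelihood test). Values like those of Wwc1 follow from choosing these genes by their likeness to it in the same libraries.

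**Figure D3:**
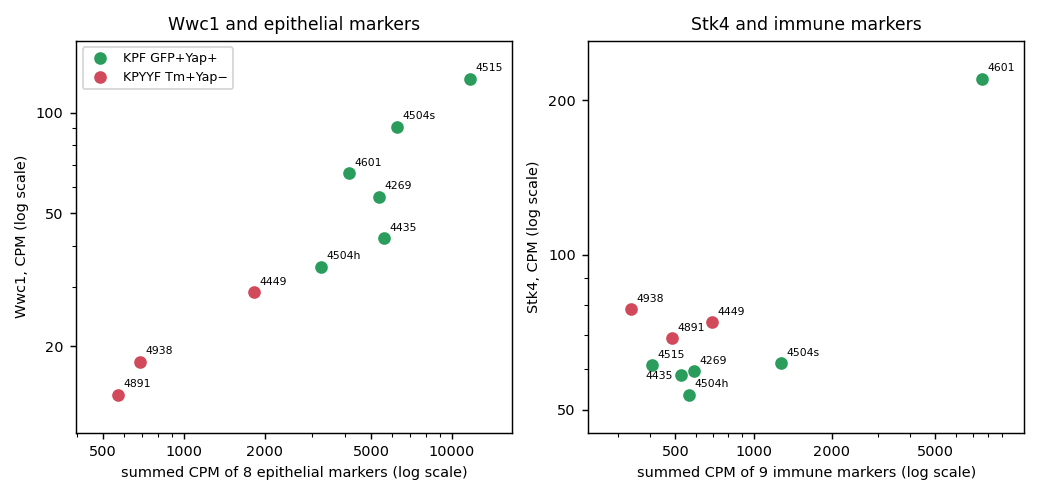
Wwc1 in CPM against the summed CPM of 8 epithelial markers (left) and Stk4 in CPM against the summed CPM of 9 immune markers (right), both axes on log scales, with 1 labelled point per library (green, KPF, n = 6; red, KPYYF, n = 3). The 3 KPYYF libraries are at the lower left of the left panel, and in the right panel library 4601 alone combines 7571 CPM of immune markers with 221 CPM of Stk4.

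Amotl1 (ENSMUSG00000013076, an angiomotin that binds Yap at the cell cortex, on chromosome 9 from 14541966 to 14645056, minus strand) was at 82.9, 206 and 329 CPM in the lowest, median and highest KPF libraries and at 255, 306 and 167 CPM in KPYYF libraries 4449, 4891 and 4938. All 3 KPYYF libraries fell inside the KPF range (log2 fold change 0.24, standard error 0.37, 95% interval -0.57 to 1.05, adjusted p = 0.822 by edgeR's quasi-likelihood test). Among the 6 libraries with Xist reads its log2 fold change was -0.16.

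The other 2 angiomotin genes, which belong to a wider list of 43 Hippo pathway genes, stood on opposite sides of Amotl1. Amot (ENSMUSG00000041688, on chromosome X from 145446425 to 145505181) rose in Tm+Yap− cells, from 15.8, 37.5 and 57.1 CPM in the lowest, median and highest KPF libraries to 151, 316 and 85.9 CPM in KPYYF libraries 4449, 4891 and 4938. No KPYYF library overlapped a KPF library, as was the case in this direction for 3.92% of all genes tested. Amot had a log2 fold change of 2.34 (standard error 0.43, 95% interval 1.42 to 3.26, adjusted p = 0.0249 in edgeR), and the adjusted p was 0.119 without KPYYF library 4891, where the log2 fold change was 1.70. It was between 0.0526 and 0.0585 without KPF library 4435, 4504s or 4515. Among the 6 libraries with Xist reads, a comparison that bears on this X-linked gene, the log2 fold change was 2.53 (adjusted p = 0.126). Pdgfra, a marker of fibroblasts and other mesenchymal cells singled out after its values were seen, was at 24.3, 285 and 116 CPM in KPYYF libraries 4449, 4891 and 4938 and at 4.38 to 42.0 CPM in KPF libraries. Of the 8 fibroblast markers 6 had a log2 fold change above 0 and 2 below, and their sum was at 1130 to 3109 CPM in KPYYF and 411 to 5442 CPM in KPF libraries. The part of such cells in the Amot value was not tested.

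Amotl2 (ENSMUSG00000032531), a known Yap target whose promoter word is shown above, was at 18.8, 33.7 and 74.7 CPM in the lowest, median and highest KPF libraries and at 24.3, 8.64 and 7.56 CPM in the KPYYF libraries. Of the KPYYF libraries 2 lay below every KPF library and 4449 lay above KPF library 4601 alone (log2 fold change -1.52, standard error 0.54, unadjusted p = 0.0150, adjusted p = 0.181 by edgeR's quasi-likelihood test). Read against each other within a library, the log2 ratio of Amot to Amotl2 reads was -0.97 to 1.04 in KPF and 2.63 to 5.16 in KPYYF libraries. That of Amot to Amotl1 was -4.36 to -1.09 and -0.96 to 0.05. These ratios were looked at after the values of the genes were known and are given without a test.

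**Figure D4:**
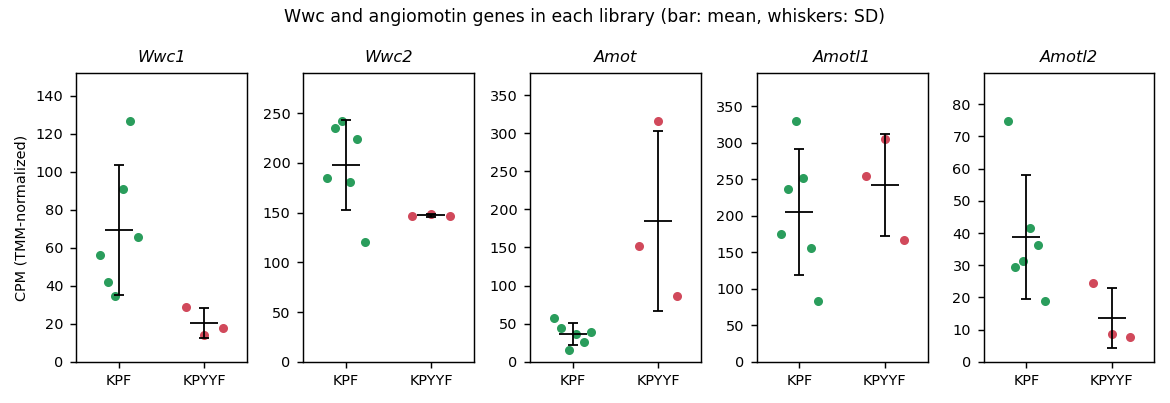
CPM (vertical axis, TMM-normalized, starting at 0) of Wwc1 and its paralog Wwc2 and of the 3 angiomotin genes in each library, with KPF in green (n = 6), KPYYF in red (n = 3) and the mean with its SD in black. Amot is higher in all KPYYF libraries (85.9 to 316 against 15.8 to 57.1 CPM), Amotl1 overlaps, and 2 of 3 KPYYF libraries lie below every KPF library in Amotl2.

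Wwc2 (ENSMUSG00000031563), the paralog of Wwc1, was at 121, 205 and 242 CPM in the lowest, median and highest KPF libraries and at 146, 149 and 147 CPM in KPYYF libraries 4449, 4891 and 4938. These were inside the KPF range, above KPF library 4601 alone (log2 fold change -0.43, standard error 0.27, 95% interval -1.02 to 0.16, adjusted p = 0.483 by edgeR's quasi-likelihood test). The log2 ratio of Wwc1 to Wwc2 reads was -2.80 to -0.82 in KPF and -3.36 to -2.32 in KPYYF libraries, with overlap. Frmd6, an upstream FERM-domain partner of the pathway, had a log2 fold change of -0.36 (adjusted p = 0.791).

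Around the cascade, 42 of the 43 genes of the wider list were tested, and 1 rose and 2 fell at an adjusted p under 0.05 (edgeR's quasi-likelihood test), beside 0.305% and 0.794% of all genes tested. Fat4 had at most 5 reads in a library and was not tested. Of the 42, 14 had a log2 fold change above 0 and 28 below, beside 53.3% of all genes tested below 0, with a median of -0.30 beside -0.07 for all genes tested. At an unadjusted p under 0.05 there were 10 of the 42, beside 16.1% of all genes tested. The gene that rose was Amot. The count of 3 became 0 without KPF library 4435, 4504s or 4515 or without KPYYF library 4891, 1 without KPF library 4269 or KPYYF library 4938, and 0 among the 6 libraries with Xist reads.

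Taok3 (ENSMUSG00000061288), one of the TAO kinases that can activate MST, fell from 92.6, 164 and 206 CPM in the lowest, median and highest KPF libraries to 59.4, 52.9 and 54.4 CPM in KPYYF libraries 4449, 4891 and 4938. The 3 KPYYF values were close together and below all KPF values. The log2 fold change was -1.51 (standard error 0.31, 95% interval -2.17 to -0.85, adjusted p = 0.0357 by edgeR's quasi-likelihood test), and its adjusted p stayed under 0.05 in 2 of the 9 fits that left out a library, those without KPF library 4504h or 4601 (0.0240 to 0.121 over the 9). Its paralogs Taok1 and Taok2 had log2 fold changes of 0.04 (95% interval -0.44 to 0.52) and -0.05 (95% interval -0.75 to 0.66). Of the 10 MAP4K and TAO kinase genes Taok3 alone passed, and 8 had a log2 fold change below 0, beside 53.3% of all genes tested.

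Rassf6 (ENSMUSG00000029370), of the RASSF family of MST-binding proteins, had 4.33, 10.4 and 14.5 CPM in the lowest, median and highest KPF libraries and fell to 0, 0.219 and 0 CPM in KPYYF libraries 4449, 4891 and 4938. This was 536 reads in KPF and 2 reads in KPYYF libraries, a ratio of 131 after scaling for library size with an exact 95% counting interval of 36.2 to 1087, which covers counting error only (adjusted p = 0.0357 by edgeR's quasi-likelihood test). In 2 of the 9 fits that left out a library it stayed under 0.05, those without KPF library 4601 or KPYYF library 4449. With the reads of both libraries numbered 4504 added together it was 0.0521, and 2 genes of the wider list were then called. The other 5 RASSF genes did not pass.

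Among the genes of the wider list that did not pass the adjustment, up to 3 per direction with the smallest unadjusted p under 0.05 are described. Lower were Ajuba, a LIM protein that inhibits LATS, the apical polarity gene Crb3 and Amotl2. Higher were the NDR kinase gene Stk38 and the casein kinase gene Csnk1d. Fat1 (log2 fold change -1.69, adjusted p = 0.225) and Rassf2 (log2 fold change -3.39, adjusted p = 0.272) came next on the lower side. Both also had an unadjusted p under 0.05 in edgeR. For Rassf2, KPF library 4601, the one with the high immune markers, held 48.2 CPM, and no other library exceeded 8.54 CPM. The groups overlapped, with Rassf2 at 0.221 CPM in KPF library 4515 and at 0.119, 1.75 and 1.42 CPM in 4449, 4891 and 4938. The part of library 4601 in the Rassf2 difference was not tested. Ajuba was at 18.1 to 37.7 CPM in KPF and 0.119, 5.14 and 6.36 CPM in KPYYF libraries 4449, 4891 and 4938 (log2 fold change -2.80, standard error 0.82, adjusted p = 0.119 by edgeR's quasi-likelihood test). Crb3 was at 7.67 to 48.7 CPM and at 7.01, 0.219 and 1.75 CPM (log2 fold change -2.81, standard error 0.96, adjusted p = 0.167). Both were among the 5 genes of the wider list that were lower in every KPYYF than in any KPF library, beside 5.18% of all genes tested. The others were Taok3, Rassf6 and the STRIPAK gene Slmap (34.6 to 51.4 against 55.8 to 119 CPM, adjusted p = 0.335). Without KPYYF library 4449 the log2 fold change of Crb3 was -4.39 (adjusted p = 0.0606 in edgeR) and that of Amotl2 -2.25 (adjusted p = 0.0722). Without 4891 they were -2.26 (adjusted p = 0.283 in edgeR) and -1.28 (adjusted p = 0.378). Without 4938 they were -2.54 (adjusted p = 0.346 in edgeR) and -1.23 (adjusted p = 0.395). Stk38, a kinase of the NDR family related to LATS and also bound by MOB1, was at 42.5 to 182 CPM in KPF and 139, 230 and 134 CPM in KPYYF libraries, with KPF library 4601 above 2 of these 3 (log2 fold change 0.98 with a standard error of 0.43, adjusted p = 0.277). Without libraries 4601, 4504s and 4449 together, a choice made after seeing the data, Stk38 was at 1.77 (adjusted p = 0.0366 in edgeR). The KPF libraries so left out held the highest KPF values of Stk38, 182 CPM in 4601 and 110 CPM in 4504s. A larger difference therefore follows from the choice itself. Its paralog Stk38l had a log2 fold change of 0.14 (adjusted p = 0.928). Csnk1d, which takes part in the degradation of Yap, had a log2 fold change of 0.54 (adjusted p = 0.301). None of the 8 STRIPAK genes, whose phosphatase complex switches MST off, had an unadjusted p under 0.05, and their log2 fold changes ran from -0.71 to 0.68.

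**Figure D5:**
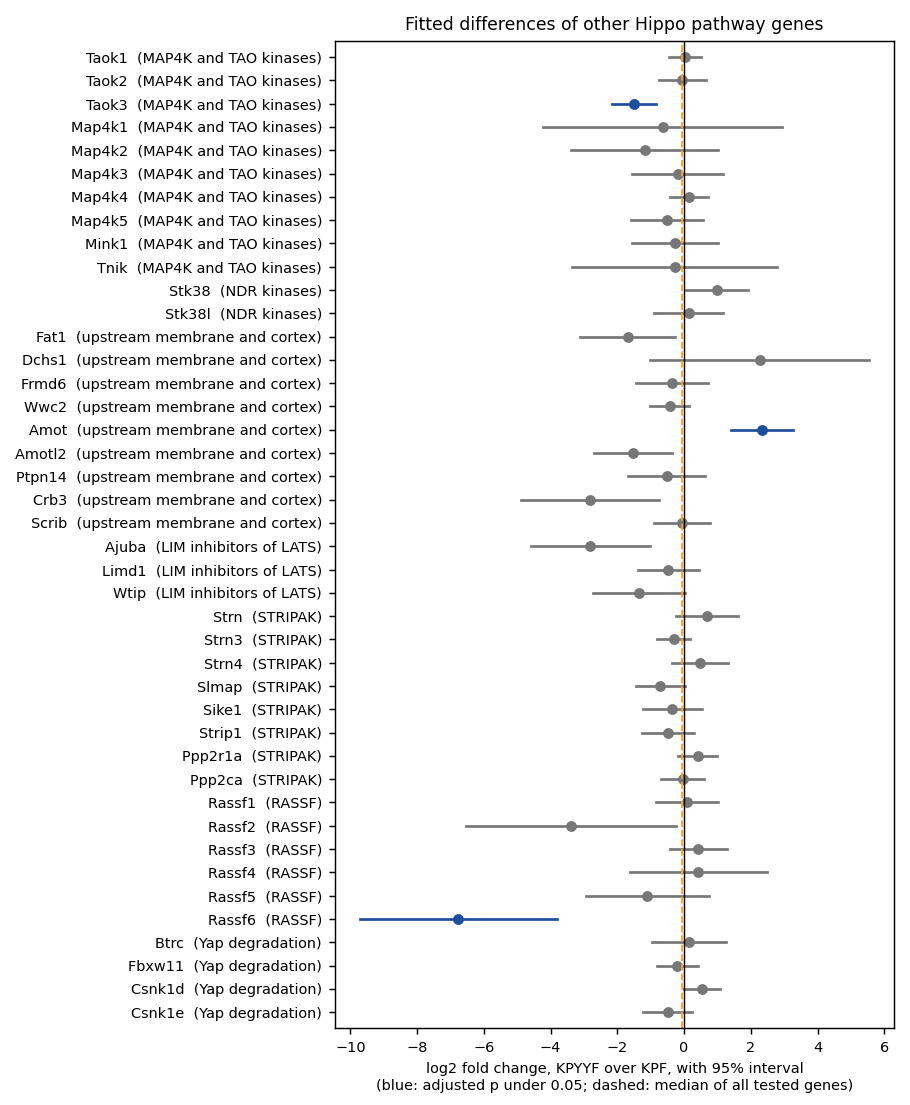
Log2 fold change of KPYYF over KPF (horizontal axis) with its 95% interval for the 42 tested genes of the wider Hippo list (rows, ordered by role), where blue marks an adjusted p under 0.05, grey the rest, and the dashed line the median of all genes tested, -0.07. Amot (2.34) lies to the right and Taok3 (-1.51) and Rassf6 (-6.76, from 2 reads in KPYYF) to the left.

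Within the groups, 6 of the 10 cascade genes varied more among the KPF libraries than the median gene did. The highest KPF library had 1.59 times the lowest for Mob1a and 4.13 times for Stk4, beside a median of 2.92 times over tested genes with a mean of at least 10 CPM. In the 3 KPYYF libraries the range went from 1.14 times for Lats2 and Stk4 to 2.64 times for Mob1b, beside a median of 2.23 times.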

How the data were processed

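The authors deposited raw read counts per Ensembl gene, 1 file per library and without normalization, from Lexogen QuantSeq 3′ forward libraries. The submitters' processing notes name STAR, HTSeq and mm10, and versions and annotation are not given in the sources used here. The paper's methods instead describe BeadChips, although they also state a minimum number of reads per gene and testing by DESeq2. Genes held 38.5 to 42.0% of the reads in a KPF file and 37.3 to 38.2% in a KPYYF file. Reads without a unique alignment made up 43.8 to 48.5% in KPF and 49.2 to 53.4% in KPYYF files. Near-identical copies may therefore lose reads. Both shares thus differed between the groups without overlap, and their part in the differences of single genes was not tested. The 5 summary lines per file were left out. Symbols and positions came from GENCODE M21 (GRCm38, the assembly of mm10), with 47224 of 47643 identifiers matched.

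Genes with at least 100 reads over the 9 libraries were normalized by TMM and tested with edgeR 4.0.16 (quasi-likelihood, robust, R 4.3.3, no covariate). Standard errors were the log2 fold change over the square root of F, and 95% intervals used the test's degrees of freedom. P was adjusted by Benjamini-Hochberg across every tested gene and called under 0.05. Permutation tests were two-sided and counted 4504h and 4504s as separate libraries. P values measure the spread between these libraries. Log2 CPM used a prior count of 2 and read ratios a pseudocount of 2. A count of 0 allows up to 3 reads, 0.292 to 0.437 CPM. Alternatives were DESeq2 1.42.0, limma-voom (limma 3.58.1), RLE and upper quartile factors, other filters, 4504h and 4504s summed, the 6 libraries with at least 1000 Xist reads, and each library left out. A further one, without 4601, 4504s and 4449 together, was chosen after seeing the data. The tools were tested on simulated data. The cascade genes, the lists and the rules for naming genes (all members, list genes past the adjusted threshold, up to 3 more per direction at an unadjusted p under 0.05, and paralogs or partners of members) were chosen with earlier results of these data known. Taok1, Taok2, Fat4 and single marker genes were named after their values were seen. An allele carried by both groups is not reported here.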

Additional observations from a re-analysis of the deposited data

Results flagged for a closer look

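Among 29 quantities checked in the 6 KPF libraries, of which chance flags about 1 in 20, 4 had an extreme library whose gap to its nearest neighbor was above Dixon's 95% critical share of the whole range for 6 samples. Stk4 was highest in library 4601, with a gap of 0.900 of the range (log2 CPM 7.79 against 5.95 in the next library). Lats2 was lowest in library 4504s, with a gap of 0.731 (4.29 against 5.47), and Stk3 was lowest in library 4515, with 0.687 (2.87 against 4.00). Csnk1d was highest in library 4435, with 0.686 (8.66 against 8.17). Library 4601 also had the highest immune markers and 4504s the highest acinar markers, and their part in these values was not tested.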

How the results depend on the processing

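No alternative gave an adjusted p under 0.05 to a cascade gene except for Wwc1, called with DESeq2 and without a filter on low counts (1 gene each). Wwc1 alone passed the rule of the methods in all 18 alternatives, and the number of cascade genes with a log2 fold change below 0 was 5 to 7. The log2 fold change of Stk4 was 0.025 with limma-voom, 0.36 among libraries with Xist reads, 0.37 without 4601, 4504s and 4449 together and -0.32 to 0.35 with each library left out (0.35 without 4601). Lats1 was at -0.0093 without those 3 libraries, Nf2 at -0.011 without 4891 (up to 0.55 without 4449), Amotl1 at -0.16 among libraries with Xist reads and Stk38l at -0.18 without 4938 (up to 0.58 without 4515). The 3 paralog ratios kept their direction and stayed short of the threshold. The Stk3/Stk4 difference, however, ran from 0.045 among libraries with Xist reads to 0.92 without 4891, and it was 0.37 without 4601. In the wider list, 6 genes were called with DESeq2, 1 with limma-voom (where Taok3 was at an adjusted p of 0.0543 and Rassf6 at 0.130), 0 among libraries with Xist reads and 0 to 3 with each library left out. Over all genes, 43 were called higher and 112 lower, 269 and 928 with DESeq2, 88 and 219 without a filter, 6 and 31 among libraries with Xist reads, 44 lower with limma-voom, 25 higher with 4504h and 4504s summed and 177 lower without 4601, 4504s and 4449. With each library left out they ranged from 6 (without 4435) to 75 (without 4449) higher and from 13 (without 4938) to 198 (without 4449) lower. The cause was not tested. No paired analysis was possible because the replicate numbers only name libraries and the mice differ between groups. The 95% interval of 1 of the 10 cascade genes alone, Mob1a, stayed within 2-fold.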
